A study of Mus musculus with 2 samples.

Results

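Interferon-stimulated genes were followed across the cell types of the mouse cornea and limbus, the ring of tissue that borders the cornea. The genes were chosen by name: 29 genes known mainly as targets of type I interferon and 15 known mainly as targets of gamma interferon, 44 in all. Of these, 42 matched a row of the table of 32285 genes, namely 27 type I genes and all 15 gamma-type genes. Mx1 and Mx2 had no matching row and were not analysed here.

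The study compared 1 NaOH-injured wild-type mouse library with 1 uninjured wild-type control library, both made from the anterior segment of the eye with 10x Genomics single-cell RNA sequencing. NaOH is an alkali that burns the corneal surface. Both libraries carry the genotype label wt, and no transgene or deletion is named for either. Lens, retina, iris and trabecular network had been removed and most conjunctiva cut away, so some conjunctiva can remain in either library. Cells were freed with liberase at 37 °C and then with trypsin. The labels used here give neither the age of the mice nor the time after injury. With 1 library in each group there was no replicate and no test of the injury: every interval is a 95% interval for counting error only, and a difference between the libraries cannot be told apart from a difference between mice or preparations.

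The injured library held 108863350 unique molecular identifiers (UMIs, 1 per captured RNA molecule) in 9399 barcodes, and the uninjured library 85457541 UMIs in 7490 barcodes, and 15 barcode sequences occurred in both. After filtering, 8326 cells of the injured library (median 10593 UMIs per cell) and 6722 of the uninjured library (median 10147.5) were kept. Clustering was done without the 42 genes and without the other interferon pathway genes. Clusters were named from marker genes, and every name carries the suffix "-like" for that reason. All markers of each named class were detected in both libraries for the 6 classes compared.

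The 6 classes, with injured cells before uninjured cells, were epithelial-like (4900 and 5485), stromal-like (803 and 459), mural-like (84 and 58), Schwann-like (97 and 55), vascular endothelial-like (209 and 43) and macrophage or monocyte-like (344 and 16). Neutrophil-like cells numbered 1018 in the injured library and 2 in the uninjured library, so they are described for the injured library only. The epithelial-like and stromal-like classes were made of different clusters in the 2 libraries, and the vascular endothelial-like cluster also held the lymphatic marker Ccl21a among its leading genes. A cluster of 852 injured cells and another of 3 injured and 601 uninjured cells scored highest for epithelial markers but did not meet the naming rule and were left unnamed.

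Type I interferons are secreted after nucleic acid sensors are triggered and bind the receptor made of IFNAR1 and IFNAR2. The kinases JAK1 and TYK2 then pass the signal on to a transcription factor complex that includes STAT2 and IRF9 and binds a DNA element called ISRE. Gamma interferon, made mainly by T and NK cells, binds IFNGR1 and IFNGR2 and acts through JAK1 and JAK2 on genes with an element called GAS, and IRF1, one of the proteins so induced, then turns on further genes at ISRE-like sites. The genes induced include antiviral proteins (ISG15, the IFIT, OAS and IFITM families), interferon-inducible GTPases (guanylate-binding proteins and immunity-related GTPases), chemokines that attract T cells (CXCL9 and CXCL10) and the immunoproteasome. The 2 gene groups overlap in reality, since many genes answer to both interferons.

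Of 9 genes that differed at least 2-fold between the libraries in 3 or more cell classes, the promoters of 6 are printed. These are the genes called in the most classes, with ties taken by UMIs, which left out Ifit3, Ifi47 and Igtp. The share of all genes called in as many classes is not given. Each is 300 bases long, from 250 bases before to 50 bases after a RefSeq transcription start, on build GRCm38, read 5′ to 3′ on the strand of the gene. Capitals mark matches to an ISRE core, GAAANNGAAA, or to a GAS, TTCNNNGAA, each searched on both strands (the GAS letters read the same on both).
Irf1 (chr11:53769764-53770063, plus strand, the more upstream of 2 starts listed): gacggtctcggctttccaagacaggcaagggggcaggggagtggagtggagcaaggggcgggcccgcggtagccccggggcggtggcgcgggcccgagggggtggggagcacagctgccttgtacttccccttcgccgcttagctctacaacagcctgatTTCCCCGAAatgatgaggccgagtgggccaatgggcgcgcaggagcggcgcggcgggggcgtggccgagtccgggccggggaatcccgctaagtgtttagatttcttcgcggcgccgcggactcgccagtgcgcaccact
Irgm1 (chr11:48871371-48871670, minus strand): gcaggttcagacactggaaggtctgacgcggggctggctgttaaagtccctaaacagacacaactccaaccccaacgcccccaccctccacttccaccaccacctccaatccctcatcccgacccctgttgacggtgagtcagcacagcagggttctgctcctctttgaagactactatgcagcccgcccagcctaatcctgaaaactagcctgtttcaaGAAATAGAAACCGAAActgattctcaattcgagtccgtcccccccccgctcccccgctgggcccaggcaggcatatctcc
Ifitm1 (chr7:140967826-140968125, plus strand): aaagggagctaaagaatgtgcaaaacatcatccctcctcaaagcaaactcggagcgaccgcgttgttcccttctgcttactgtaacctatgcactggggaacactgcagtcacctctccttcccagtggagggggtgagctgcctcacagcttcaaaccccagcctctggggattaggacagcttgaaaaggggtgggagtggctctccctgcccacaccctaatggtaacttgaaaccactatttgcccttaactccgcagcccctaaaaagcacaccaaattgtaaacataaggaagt
Cxcl10 (chr5:92348840-92349139, minus strand): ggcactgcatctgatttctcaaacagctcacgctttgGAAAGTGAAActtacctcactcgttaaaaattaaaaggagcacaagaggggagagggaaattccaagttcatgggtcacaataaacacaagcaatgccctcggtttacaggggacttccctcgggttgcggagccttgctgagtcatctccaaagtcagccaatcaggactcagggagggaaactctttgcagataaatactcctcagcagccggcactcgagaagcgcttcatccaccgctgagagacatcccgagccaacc
Isg15 (chr4:156200769-156201068, minus strand): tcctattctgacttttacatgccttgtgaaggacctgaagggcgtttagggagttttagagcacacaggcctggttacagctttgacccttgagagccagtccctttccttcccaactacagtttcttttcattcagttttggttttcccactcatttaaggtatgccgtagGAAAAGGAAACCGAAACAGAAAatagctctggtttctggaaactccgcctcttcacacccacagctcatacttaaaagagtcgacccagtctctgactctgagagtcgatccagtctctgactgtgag
Ifit1 (chr19:34640639-34640938, plus strand): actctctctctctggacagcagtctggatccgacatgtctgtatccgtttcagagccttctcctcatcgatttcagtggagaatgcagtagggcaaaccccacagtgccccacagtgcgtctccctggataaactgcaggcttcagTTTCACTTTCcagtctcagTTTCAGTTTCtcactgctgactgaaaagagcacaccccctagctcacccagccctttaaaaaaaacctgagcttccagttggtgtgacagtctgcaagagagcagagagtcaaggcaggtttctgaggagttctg

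The Isg15 promoter held 3 overlapping ISRE core matches, the Irgm1 promoter 2 overlapping ones, the Ifit1 promoter 2 separate ones and the Cxcl10 promoter 1. The Irf1 promoter held 1 GAS match and no ISRE core match, and the Ifitm1 window held neither. By GENCODE M21 positions, Ifitm1 spans chr7:140967221-140969825 and Irgm1 chr11:48861968-48871683. The windows of these 2 genes lie inside the spans and do not cover the annotated gene start. The promoter table had entries for 35 of the 42 genes and none for Iigp1, Rtp4, Parp14, Oas2, Dhx58, Usp18 and Zbp1. An ISRE core match was present in 12 of 21 type I genes (57.1%) and in 8 of 14 gamma-type genes (57.1%), against 3.99% of the 27025 genes in the table. A GAS match was present in 5 of 21 type I genes (23.8%) and in 6 of 14 gamma-type genes (42.9%), against 9.55% of all genes. A match is a string of letters and not a shown binding site.

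Many of the genes lie next to each other. Within 500 kb of a neighbour, 24 of the 42 genes fell into 9 groups on GRCm38 by GENCODE M21 positions. These include Ifit2, Ifit3 and Ifit1 at chr19:34550694-34650009, the guanylate-binding protein genes Gbp5, Gbp7, Gbp3 and Gbp2 at chr3:142493978-142638008, and Ifitm1, Ifitm3 and Irf7 at chr7:140967221-141266481. Irgm1 and Ifi47 lie at chr11:48861968-49096974, and Psmb9, Tap1 and Psmb8 at chr17:34181987-34201454 in the MHC region. Members of the IFIT, IFITM, GBP, OAS and IRG families are similar in sequence, so how the authors' counting shared reads among them is uncertain.

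Levels are given as CPM, the UMIs of a gene scaled to the summed UMIs of that cell class in that library. A gene was taken as measured in a class where both libraries together held 20 UMIs or more of it, and as higher or lower where the CPM ratio reached 2-fold and its counting interval excluded 1. For ratios, counts below 3 UMIs were set to 3. Because each group has 1 library, these calls describe the libraries.

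Mural-like cells, the pericytes and smooth muscle cells around vessels, showed the most one-sided pattern. There, 0 of 20 measured genes were higher in the injured library and 12 were lower, against 9.06% and 8.43% of the 4494 genes measured in that class. The lower genes were 4 of 11 type I genes and 8 of 9 gamma-type genes. The median log2 ratio was -1.06 over the type I genes and -2.14 over the gamma-type genes, with 0.23 over all genes of the class. The size of this pattern changed under alternatives, including 1 that left out few cells. With each cell thinned to 1000 UMIs 3 genes were lower. Without the 5 cells of each library richest in these genes 7 were lower and 1 higher. Both settings leave fewer UMIs, so fewer genes can reach the minimum of 20 UMIs, and the share of all genes under them is not given. With cells weighted alike the gamma-type median was -0.99.

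Vascular endothelial-like cells gave no higher gene either with the settings used here. Of 37 measured genes, 0 were higher and 9 lower in the injured library, against 6.6% of the 7969 genes measured in either direction. The lower genes were 4 of 22 type I genes and 5 of 15 gamma-type genes, with median log2 ratios of -0.47 and -0.44 and -0.07 over all genes. This did not hold under all alternatives: thinning gave 1 higher and 1 lower gene with a type I median of 0.17, and weighting cells alike a gamma-type median of 0.19. The share of all genes called with thinned cells is not given. With only 43 uninjured endothelial-like cells, 5 of them held 46.2% of the UMIs of the type I genes other than Ifitm1, Ifitm3 and Bst2. The makeup of this class also differed: 6 lymphatic endothelial markers summed to 1534 CPM in the injured library (6 of 6 detected) and 30.2 CPM in the uninjured library (2 of 6, with Lyve1, Pdpn, Mmrn1 and Ccl21a at 0). Summed mural markers went the other way, at 112 CPM injured and 1082 CPM uninjured (6 and 7 of 8 detected). The part of these cells in the endothelial-like values was not tested.

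Schwann-like cells, the glia of the corneal nerves, gave 2 higher and 2 lower genes of 14 measured, against 10.1% higher and 5.63% lower of 3551 genes. Stromal-like cells gave 3 higher and 7 lower genes of 33 measured, against 9.85% and 9.4% of 11970 genes. The stromal median log2 ratio was -0.52 over 20 type I genes and -0.03 over 13 gamma-type genes, with 0.01 over all genes.

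Epithelial-like cells, the largest class, gave 7 higher and 7 lower genes of 40 measured, against 12.9% higher and 11.4% lower of 14493 genes. The 7 higher genes were 5 of 27 type I genes and 2 of 13 gamma-type genes, and the 7 lower genes were 3 type I and 4 gamma-type genes. Medians of the log2 ratio were -0.18 for the type I genes and -0.05 for the gamma-type genes, with -0.01 over all genes. Macrophage or monocyte-like cells gave 1 higher and 3 lower genes of 30 measured, against 2.75% higher and 3.73% lower of 7302 genes. The 16 uninjured cells of that class held 57962 UMIs in all, and with counts under 3 set to 3 its median log2 ratio over all genes was -0.72. Its medians of -0.82 (20 type I genes) and -1.76 (10 gamma-type genes) are read against that value.

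**Figure D1:**
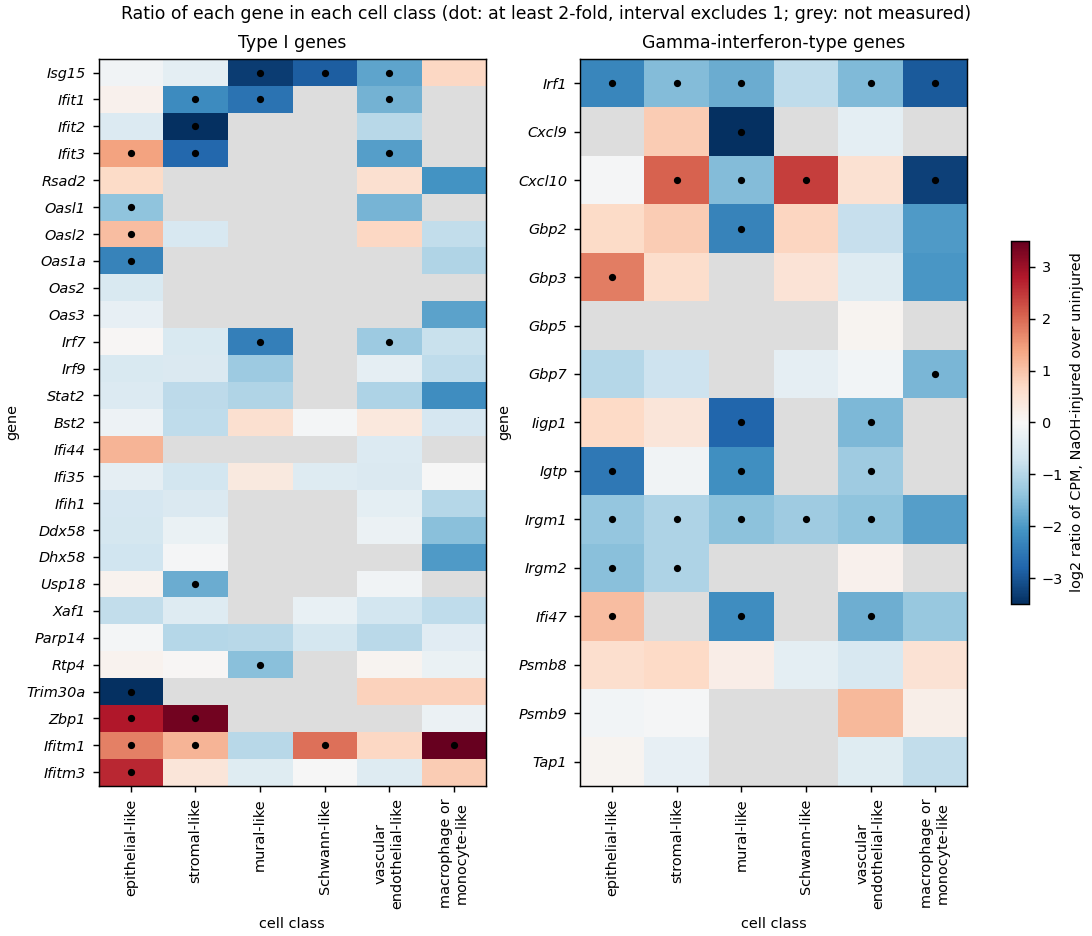
Log2 ratio of CPM, NaOH-injured over uninjured, for the type I genes (left) and the gamma-interferon-type genes (right) in 6 cell classes, red where higher and blue where lower in the injured library. Dots mark ratios of at least 2-fold whose counting interval excludes 1, and grey marks genes with fewer than 20 UMIs. Irf1 and Irgm1 are blue with a dot in 5 of the 6 classes each, and the mural-like column holds 12 dots, all blue.

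Summed over genes, the 24 type I genes other than Ifitm1, Ifitm3 and Bst2 reached 469 CPM in injured and 2162 CPM in uninjured mural-like cells, a level 4.61-fold lower after injury (counting interval 3.89 to 5.46). Those 3 genes were set apart after their levels were seen. Over the 6 classes of both libraries, Ifitm1 (165338 UMIs) and Ifitm3 (123651 UMIs) outnumber the other type I genes. Bst2 (3175 UMIs) does not, with fewer than Ifi35 (6927 UMIs), which was kept. The 15 gamma-type genes summed to 855 CPM in injured and 3179.9 CPM in uninjured mural-like cells, 3.72-fold lower (3.26 to 4.24). The 5 richest mural-like cells held 31.7% of the injured and 33.5% of the uninjured type I UMIs, and 36.1% and 48.0% of the gamma-type UMIs. In vascular endothelial-like cells the 24 type I genes summed to 919 CPM in the injured and 1765 CPM in the uninjured library, and the gamma-type genes to 1849.9 and 3584 CPM. The mural-like and endothelial-like classes had the highest sums of both groups among the 6 classes in the uninjured library.

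Epithelial-like cells had 169 CPM of the 24 type I genes when injured and 187 CPM when uninjured, and 207 and 314 CPM of the gamma-type genes. Stromal-like cells had 175 CPM in the injured and 337 CPM in the uninjured library for the type I genes, and 262 and 349.8 CPM for the gamma-type genes. Schwann-like cells had 458 CPM injured and 994 CPM uninjured of type I genes, and 775 and 892 CPM of gamma-type genes. Macrophage or monocyte-like cells had 643 CPM injured and 345 CPM uninjured of type I genes (1226 and 20 UMIs), with a ratio of 1.86 (1.20 to 3.06). Its makeup differed too: 6 mast cell markers summed to 7.34 CPM injured and 2346 CPM uninjured (1 and 4 detected), 7 dendritic markers to 98.6 and 587 CPM (6 and 2 detected), and 8 neutrophil markers to 1066 and 51.8 CPM (7 and 2 detected). The part of these cells in the values of this class was not tested. The gamma-type genes of that class summed to 442 CPM in the injured and 638 CPM in the uninjured library. In the other 5 classes the injured sum of the 24 type I genes was the lower one. The difference between classes was not tested. All 27 type I genes summed to 3101 CPM injured and 901 CPM uninjured in epithelial-like cells and 2151 and 1839 CPM in stromal-like cells. Macrophage or monocyte-like cells had 3451 and 1432 CPM, mural-like 4162 and 7616 CPM, and Schwann-like 2088 and 2522 CPM. Endothelial-like cells had 4341 and 6177 CPM of these 27 genes.

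**Figure D2:**
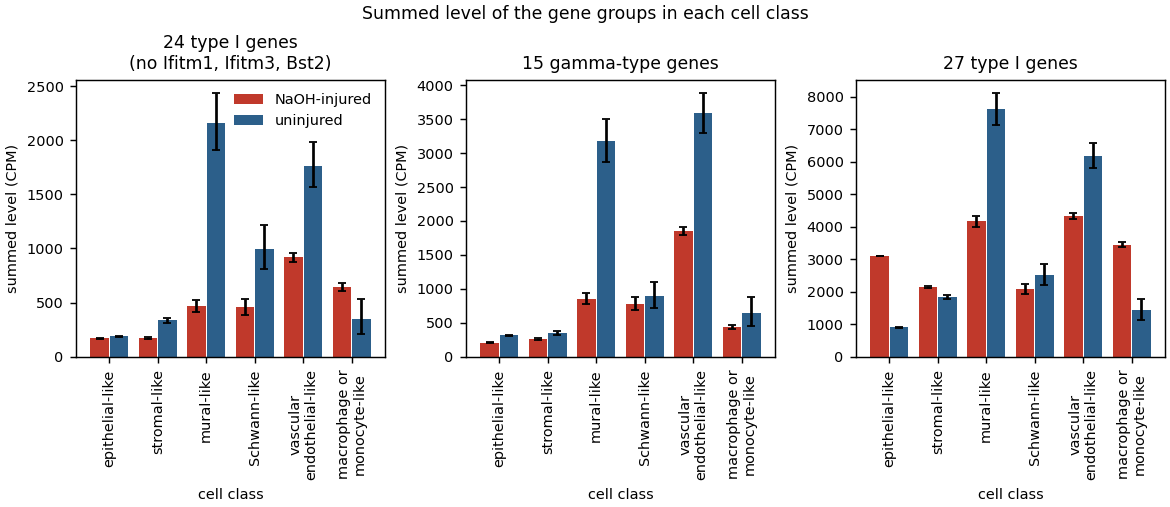
Summed CPM of 24 type I genes (left), 15 gamma-type genes (middle) and all 27 type I genes (right) in 6 cell classes, with NaOH-injured bars (red) left of uninjured bars (blue) and 95% counting intervals. The mural-like bars of the left panel stand at 469 and 2162 CPM, and the right panel is dominated by Ifitm1 and Ifitm3.

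Depth differed between the libraries within classes: the median was 6021 UMIs per injured and 2094 per uninjured mural-like cell. Each cell was therefore also thinned to 1000 UMIs. After thinning, 26 of 81 injured mural-like cells (32.1%, exact binomial interval 22.2 to 43.4) and 39 of 55 uninjured ones (70.9%, 57.1 to 82.4) held at least 1 UMI of the 24 type I genes, and without thinning the shares were 79.8% and 86.2%. For endothelial-like cells the thinned shares were 101 of 205 (49.3%, 42.2 to 56.3) and 29 of 40 (72.5%, 56.1 to 85.4), and unthinned 89.5% and 90.7%. Epithelial-like cells stood lowest of the 6 classes in both libraries, at 12.2% of 4858 injured and 14.4% of 5235 uninjured cells, against 66.7% and 70.3% unthinned. The unnamed cluster of 852 injured cells stood at 9.76% after thinning. No class is known to lack these genes, so a background share could not be measured. The epithelial shares are not a background, since 1 uninjured epithelial-like cluster had 774 CPM of these genes.

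**Figure D3:**
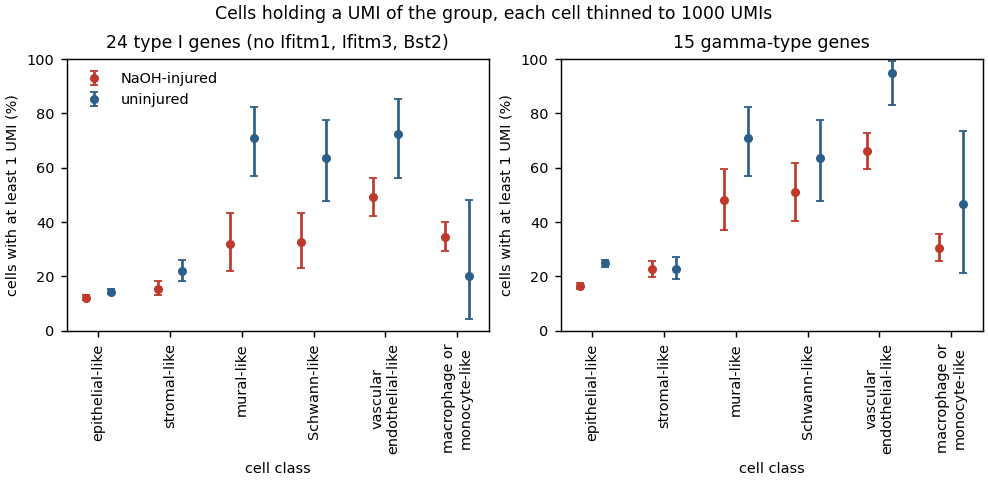
Share of cells with at least 1 UMI of 24 type I genes (left) or 15 gamma-type genes (right) after each cell was thinned to 1000 UMIs, with exact binomial 95% intervals, injured (red) left of uninjured (blue). In mural-like cells the type I shares are 32.1% and 70.9%, and in epithelial-like cells 12.2% and 14.4%.

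Interferons themselves were almost undetected. Of 21 interferon genes looked for, 3 had any UMI in the injured library (Ifnz, Ifnab and Ifnl2, 5 UMIs in all barcodes), and 4 in the uninjured library (Ifnb1, Ifnz, Ifnab and Ifnl2, 5 UMIs). Ifng had 0 UMIs in both libraries, which held 16 injured and 3 uninjured T or NK-like cells, the known main sources of gamma interferon. Interferon messages are short-lived and scarce, and at this depth a difference in them was not detectable.

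Ifnar2 and Ifngr1 had UMIs in all 6 classes of both libraries. Ifnar2, a subunit of the type I receptor, had 48.1 CPM in injured and 23.5 CPM in uninjured epithelial-like cells and passed the rule (log2 ratio 1.03). Its partner Ifnar1 had 7.96 and 5.21 CPM there and met no rule. Ifngr1, the ligand-binding gamma receptor subunit, had 87.8 CPM in injured and 54.9 CPM in uninjured epithelial-like cells (log2 ratio 0.68), and Ifngr2 had 28.9 and 18.3 CPM (0.66). In mural-like cells Ifngr1 had 36.0 CPM injured and 95.4 CPM uninjured (22 and 12 UMIs, lower by the rule), whereas Ifngr2 had 80.1 and 23.8 CPM (49 and 3 UMIs, ratio interval 1.08 to 16.9, higher by the rule). Ifnlr1, the lambda receptor subunit, was lower in injured epithelial-like cells at 1.01 CPM, against 2.17 CPM uninjured. Schwann-like Ifngr1 passed the rule on 23 injured UMIs and 1 uninjured UMI, with a ratio interval of 1.04 to 264. Among endothelial-like, stromal-like and macrophage or monocyte-like cells no receptor gene passed the rule.

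Among the receptor kinase genes Jak1, Jak2 and Tyk2, 1 gene passed the rule in any class: Jak2 in macrophage or monocyte-like cells, at 39.9 CPM injured and 121 CPM uninjured (76 and 7 UMIs). Stat2 and Irf9, which encode parts of the type I complex, passed the rule in no class.

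Irf1, an interferon-induced transcription factor that activates many gamma interferon targets, was lower after injury in 5 of 6 classes. It had 34.0 CPM in injured and 165 CPM in uninjured epithelial-like cells, 4.84-fold lower (4.63 to 5.06). Stromal-like cells had 73.2 CPM injured and 211 CPM uninjured (2.88-fold lower, 2.57 to 3.22), and mural-like cells 124 and 413 CPM (3.33-fold, 2.29 to 4.80). Endothelial-like cells had 103 CPM injured and 302 CPM uninjured, and macrophage or monocyte-like cells 15.7 and 121 CPM (30 and 7 UMIs). In Schwann-like cells the values were 117 CPM injured and 215 CPM uninjured, under 2-fold.

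Irf1 was also compared within clusters that held cells of both libraries. The cluster with Krt4, Krt13 and Krt19 among its leading genes, keratins known from conjunctival epithelium, was headed by Ppbp and Ltf. There Irf1 had 50.3 CPM in 850 injured cells and 171 CPM in 31 uninjured cells. In the cluster with Apoe and Id1 among its leading genes it had 171 CPM in 55 injured cells and 207 CPM in 374 uninjured cells, which met no rule. In the stromal-like cluster led by Mmp3 and Col3a1 it had 73.3 CPM in 802 injured cells and 112 CPM in 41 uninjured cells (ratio 0.652, 0.379 to 1.23), so the stromal-like call was not met within the shared cluster. The Gpha2 cluster, with 643 injured and 3 uninjured UMIs, gave a ratio of 0.557 (0.190 to 2.71) and no call, and the Serpinb3a and Krt15 cluster was lower, at 48.8 CPM against 182 CPM uninjured. With thinned cells the mural-like and endothelial-like log2 ratios were -0.85 and -0.73, under 2-fold. Early response genes, known to rise during tissue handling as well as after stimulation, moved the same way: Fos had 668 CPM injured and 2393 CPM uninjured in epithelial-like cells, and Egr1 243 and 588 CPM. In mural-like cells Fos had 1413 CPM injured and 3172 CPM uninjured, and Egr1 492 and 1471 CPM. The part of cell handling in the Irf1 values was not tested. Socs3, a feedback inhibitor of JAK and STAT signalling known mainly as a STAT3 target, was lower too, with 54.8 CPM injured and 313 CPM uninjured in epithelial-like cells, and by the rule in all classes but the stromal-like one.

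Irf7, the transcription factor that amplifies type I interferon production, had 21.3 CPM in injured and 111 CPM in uninjured mural-like cells (13 and 14 UMIs). In endothelial-like cells it had 27.5 CPM injured and 66.5 CPM uninjured (56 and 11 UMIs). Both differences passed the rule. Epithelial-like cells had 9.41 and 9.07 CPM, which did not differ by the rule.

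Isg15, a ubiquitin-like protein attached to other proteins after interferon, was lower in 3 classes and uncalled in the other three. Mural-like cells had 144 CPM injured (88 UMIs) and 1447 CPM uninjured (182 UMIs), 10.1-fold lower (7.75 to 13.1). Schwann-like cells had 42.9 CPM injured and 318 CPM uninjured (15 and 31 UMIs, 7.41-fold lower), and endothelial-like cells 181 and 647 CPM (3.58-fold lower). After thinning, Isg15 was found in 17.3% of injured and 60.0% of uninjured mural-like cells, against 1.91% of injured and 1.91% of uninjured epithelial-like cells. The 5 richest cells held 38.6% of the injured and 32.4% of the uninjured mural-like UMIs of Isg15. Stromal-like cells had 16.2 CPM injured and 20.5 CPM uninjured, and epithelial-like cells 21.3 and 23.4 CPM, without a call in either. Macrophage or monocyte-like cells had 86.0 CPM injured and 17.3 CPM uninjured, the second from 1 UMI, with a ratio interval of 0.882 to 198.

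RNA of an epithelial gene was found outside the epithelial-like class of the uninjured library, and whether it was free RNA was not tested. Krt12, the keratin of corneal epithelium, had 19502 CPM in uninjured epithelial-like cells and 2496 CPM in uninjured mural-like cells, 12.8% of the epithelial level, and the share was 34.6% in Schwann-like and 22.2% in endothelial-like cells. In the injured library Krt12 was at 28.0 CPM even in epithelial-like cells. At the epithelial ratio of Isg15 to Krt12, such RNA would give 0.207% of the Isg15 level of uninjured mural-like cells, 2.55% of that of Schwann-like cells and 0.803% of that of endothelial-like cells. For Irf1 the same measure gave 5.10%, 26.4% and 12.1%. The measure takes the mean ratio of all epithelial-like cells, and Isg15 levels differed between epithelial-like clusters. The summed vascular endothelial markers were at 201 CPM in injured and 31.8 CPM in uninjured mural-like cells, with 6 and 1 of 8 markers detected, against 3856 and 3542 CPM in endothelial-like cells. Summed neutrophil markers in mural-like cells were at 327 CPM injured and 15.9 CPM uninjured (5 and 2 of 8 detected), and stromal markers at 4754 and 1828 CPM (8 and 6 of 9). The part of these cells in the mural-like values was not tested.

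Ifit1 belongs to the IFIT genes, some of whose proteins bind foreign RNA, and was lower in 3 classes. Ifit1 had 29.4 CPM in injured and 175 CPM in uninjured mural-like cells (5.94-fold lower, 3.04 to 11.8) and 71.1 and 224 CPM in endothelial-like cells (3.14-fold lower, 2.13 to 4.54). In stromal-like cells Ifit1 had 10.4 CPM injured and 47.6 CPM uninjured, Ifit2 3.94 and 44.1 CPM, and Ifit3 6.70 and 45.3 CPM. All 3 were lower, by 4.56-fold, 11.2-fold and 6.75-fold. A single uninjured stromal-like cell held 42 of the 123 Ifit1 UMIs and the 5 richest held 68.3%, whereas for Ifit3 the 5 richest held 23.9%. All 123 uninjured Ifit1 UMIs came from a cluster led by Kera, which encodes the keratocyte proteoglycan keratocan, and which held 1 injured cell and 418 uninjured cells. The 106 injured Ifit1 UMIs came from a cluster led by Mmp3 and Col3a1 (802 injured and 41 uninjured cells), where the 24 type I genes summed to 175 CPM injured and 182 CPM uninjured. Class level and class makeup cannot be told apart there.

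Ifit3 was higher in epithelial-like cells, with 10.4 CPM injured and 3.94 CPM uninjured (2.65-fold higher, 2.30 to 3.05). Of its 715 injured UMIs, 665 lay in the Krt4, Krt13 and Krt19 cluster, where it had 33.2 CPM in injured and 8.08 CPM in uninjured cells (665 and 7 UMIs). Ifit1 did not differ by the rule in epithelial-like cells, at 5.88 and 5.30 CPM. Oasl2, of the 2′-5′-oligoadenylate synthetase-like genes, had 18.4 CPM injured and 8.77 CPM uninjured, while Oasl1 had 3.21 and 8.44 CPM and was lower.

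In that Krt4, Krt13 and Krt19 cluster 6 genes were higher and 3 lower in injured cells, of 32 measured, against 5.12% higher and 5.78% lower of 11234 genes measured in that cluster, with only 31 uninjured cells on the other side. Oasl2 had 43.9 CPM injured and 9.23 CPM uninjured, Irf7 22.0 and 10.4 CPM, and Ifitm3 520 and 193 CPM. Zbp1, a sensor of Z-form nucleic acid, had 353 UMIs in the injured cells and 0 in the uninjured ones, and Ifi47 had 297 and 0 UMIs. Igtp and Irgm1 were lower there besides Irf1. The 24 type I genes summed to 321 CPM in these injured cells, the highest among the injured epithelial-like clusters, and to 260 CPM in the uninjured ones. The 2 sides of this cluster can differ in makeup. At resolution 2 a cluster led by Ppbp and Ltf held 358 injured and 0 uninjured cells. A cluster led by Krt4 held 474 injured and 34 uninjured cells at that resolution. The part of makeup in these differences was not tested.

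The highest epithelial sum of all lay in the uninjured library. A cluster of 278 uninjured cells was led by Psca, Lce3a and Asprv1, genes of differentiated surface layers. It had 774 CPM of the 24 type I genes and 747 CPM of the gamma-type genes. With the settings used here no injured cell fell into it. It held 858 of the 1655 Isg15 UMIs of uninjured epithelial-like cells (201 CPM) and 440 of the 596 Oasl1 UMIs (103 CPM), with Irf7 at 65.2 CPM and Psmb8 at 345 CPM. The clusters that made up most of the uninjured epithelium had between 113 and 210 CPM of the type I genes. Both libraries also held single epithelial-like cells far above the rest: the richest held 45 UMIs of Isg15 in the injured and 55 in the uninjured library. After thinning, 22 of 4858 injured cells (0.453%) and 36 of 5235 uninjured cells (0.688%) had at least 3 UMIs of the 24 genes.

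Ifitm1 and Ifitm3, membrane proteins that block virus entry, accounted for most type I UMIs. Ifitm1 had 1788 CPM in injured and 526 CPM in uninjured epithelial-like cells (3.40-fold higher, 3.36 to 3.44), and Ifitm3 had 1139 and 182 CPM (6.25-fold higher, 6.14 to 6.37). Without these 2 genes and Bst2, the epithelial type I sum was 1.10-fold lower in the injured library, as given above. Within the epithelial-like clusters compared, Ifitm1 was not higher in the injured library. In the Krt4, Krt13 and Krt19 cluster it had 3907 CPM in injured and 6902 CPM in uninjured cells, and in the Serpinb3a and Krt15 cluster 2016 and 5302 CPM (379 and 11 cells). In the Gpha2 cluster, a limbal gene, it had 848 CPM in injured and 3214 CPM in uninjured cells (2886 and 11 cells). The differences in the Serpinb3a and Gpha2 clusters passed the rule, and that in the Krt4 cluster, with a ratio of 0.566, did not.

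The class ratio of Ifitm1 therefore had the opposite sign to its ratio within these 3 clusters. The uninjured clusters led by Aldh3a1, by the cycling gene Cenpf and by Nppb (1696, 627 and 1579 uninjured cells) had 41.4, 38.1 and 35.7 CPM of Ifitm1. Ifitm3 had 1757 CPM in injured and 983 CPM in uninjured cells of the Apoe and Id1 cluster (55 and 374 cells), under 2-fold. In the Gpha2 cluster Ifitm3 had 1471 CPM injured and 1694 CPM uninjured (ratio 0.868), and in the Serpinb3a cluster 994 and 643 CPM, without a call in either. Ifitm1 was also higher in injured stromal-like cells, at 188 CPM against 82.4 CPM uninjured, and within their shared cluster led by Mmp3 and Col3a1 at 187 CPM against 86.5 CPM. Both genes of the pair were higher in that cluster, Ifitm3 at 1716 CPM injured and 787 CPM uninjured. Ifitm1 was higher as well in Schwann-like cells, at 157 CPM against 41.0 CPM (55 and 4 UMIs). In macrophage or monocyte-like cells it had 1298 CPM injured and 86.3 CPM uninjured (2476 and 5 UMIs).

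**Figure D4:**
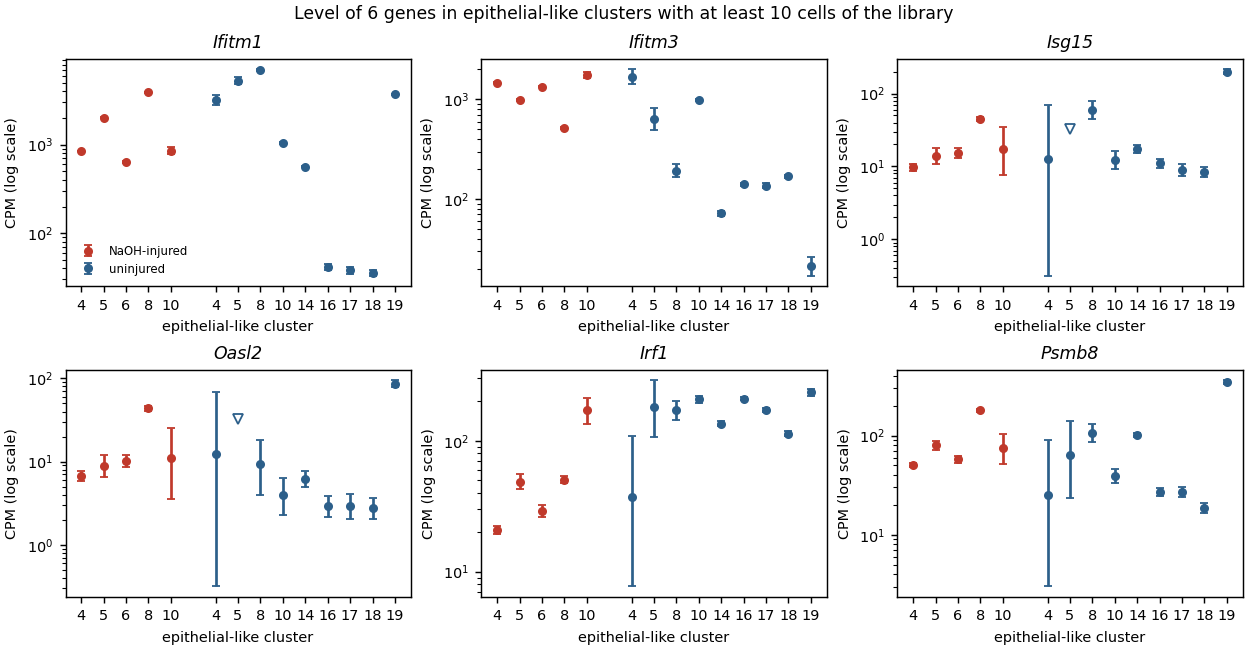
CPM on a log scale of 6 genes in epithelial-like clusters with at least 10 cells of the library, injured (red) left of uninjured (blue), with 95% counting intervals. Open triangles show the level of 3 UMIs where none was counted. Cluster 8 is the one with Krt4, Krt13 and Krt19 among its leading genes, and cluster 19 the one led by Psca. Ifitm1 stands at 3907 and 6902 CPM in cluster 8 and at 3722 CPM in cluster 19.

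Neutrophil-like cells had 4562 CPM of Ifitm1 in the injured library, above its level in each of the 6 compared classes, beside 27823 CPM of the neutrophil marker S100a8. S100a8 was at 28.1 CPM in injured epithelial-like, 60.5 CPM in stromal-like, 22.9 CPM in Schwann-like and 127 CPM in macrophage or monocyte-like cells. At the neutrophil ratio, free neutrophil RNA at those levels would give 0.257%, 5.29%, 2.38% and 1.61% of the Ifitm1 level of these classes. A like measure for epithelial RNA gave more in these classes. At the ratio of Ifitm1 to the summed epithelial markers, it would give 80.0 of the 188 CPM in injured stromal-like cells. It would give 228 CPM beside the 157 CPM found in injured Schwann-like cells, and 108 of the 1298 CPM in injured macrophage or monocyte-like cells. In the uninjured library the same measure gave 28.9 of 82.4 CPM, 177 beside 41.0 CPM and 82.6 of 86.3 CPM. This measure lay above the Schwann-like Ifitm1 level in both libraries and close to the uninjured macrophage or monocyte-like level. Whether the Ifitm1 calls in these classes reflect expression in the cells was not tested. Neutrophil-like cells had 647 CPM of the 24 type I genes and 223 CPM of the gamma-type genes, with 130 CPM of Isg15 (122 UMIs) and 34.0 CPM of Irf1 (32 UMIs) at a median of 852.5 UMIs per cell.

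Among the gamma-type GTPases, Iigp1 (an immunity-related GTPase that attacks the vacuoles of intracellular parasites) was lower in both vessel-associated classes. It had 177 CPM in injured and 1208 CPM in uninjured mural-like cells (108 and 152 UMIs, 6.84-fold lower, 5.31 to 8.84). Endothelial-like cells had 577 CPM injured and 1729 CPM uninjured (1176 and 286 UMIs, log2 ratio -1.58, fold lower interval 2.62 to 3.41). Stromal-like cells had 29.8 and 22.1 CPM, and epithelial-like cells 0.481 and 0.297 CPM, without a call.

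Irgm1, a regulator of the same GTPase family, was lower after injury in 5 classes. It had 8.31 CPM in injured and 21.1 CPM in uninjured epithelial-like cells, 47.4 and 127 CPM in mural-like cells, and 79.0 and 212 CPM in endothelial-like cells. Schwann-like cells had 94.4 CPM injured and 226 CPM uninjured (33 and 22 UMIs), and in stromal-like cells it was 2.10-fold lower (71 and 38 UMIs). Macrophage or monocyte-like cells, at 13.6 and 51.8 CPM (26 and 3 UMIs), met no rule. Igtp was lower in epithelial-like (0.700 and 3.97 CPM), mural-like (18.0 and 79.5 CPM) and endothelial-like cells (56.4 and 133 CPM), each pair with the injured value first.

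Ifi47, another GTPase of this family, had 47.4 CPM in injured and 215 CPM in uninjured mural-like cells and 62.3 and 205 CPM in endothelial-like cells, both lower. The endothelial-like difference was not seen with thinned cells, where the log2 ratio was 0.021. It was higher in epithelial-like cells, at 5.26 CPM injured and 2.49 CPM uninjured. Gbp2, a guanylate-binding protein, had 39.2 CPM in injured and 199 CPM in uninjured mural-like cells (24 and 25 UMIs), and 114 and 199 CPM in endothelial-like cells, where it met no rule. Gbp7 was lower in macrophage or monocyte-like cells, at 34.1 CPM injured and 104 CPM uninjured (65 and 6 UMIs).

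Cxcl10 and Cxcl9 encode chemokines that draw T cells through CXCR3, and Cxcl10 was higher in 2 classes and lower in 2. Stromal-like cells had 58.2 CPM injured and 13.9 CPM uninjured (591 and 36 UMIs, 4.18-fold higher, 2.99 to 6.03). Schwann-like cells had 166 CPM injured and 10.3 CPM uninjured, the second from 1 UMI, with a ratio interval of 2.79 to 649.8. Mural-like cells had 217 CPM injured and 628 CPM uninjured (2.89-fold lower, 2.16 to 3.84), but 5 cells held 78.2% of the injured and 93.7% of the uninjured UMIs. Macrophage or monocyte-like cells had 8.91 CPM injured and 86.3 CPM uninjured (17 and 5 UMIs). Endothelial-like cells, with 399 and 278 CPM, and epithelial-like cells, with 5.73 and 5.95 CPM, met no rule. Cxcl9 was called in mural-like cells only, at 11.4 CPM injured and 127 CPM uninjured, from 3 and 2 cells.

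**Figure D5:**
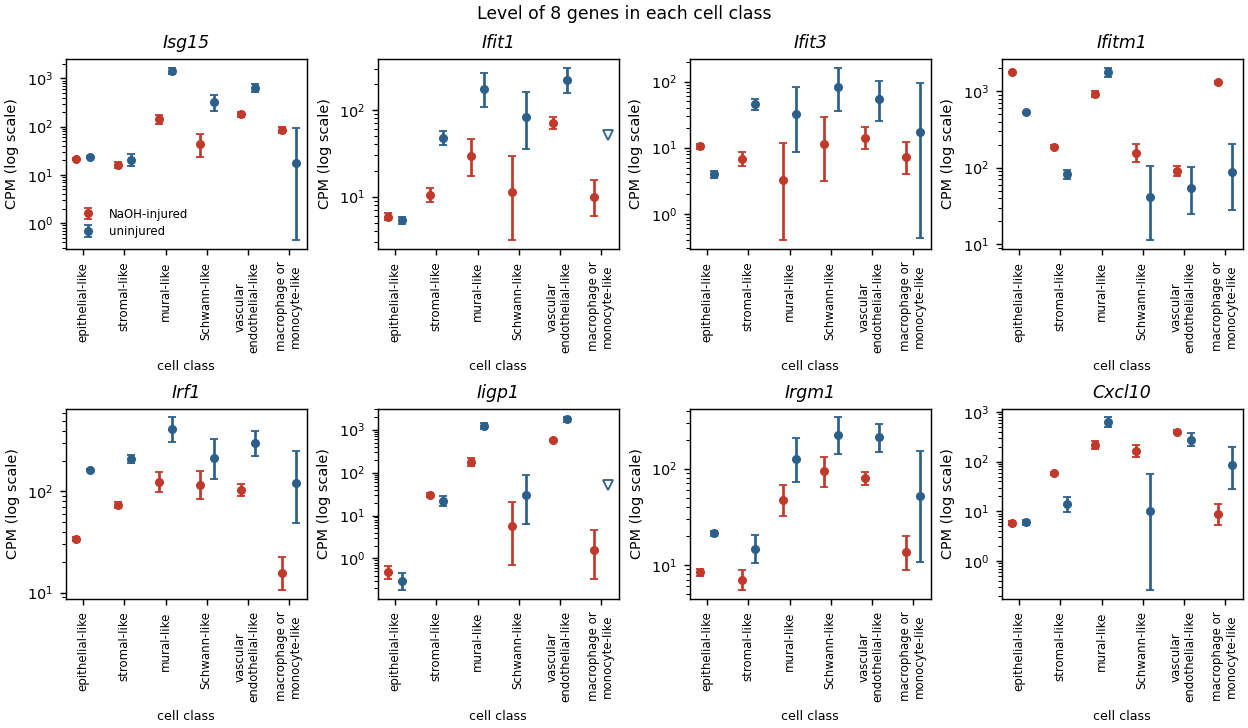
CPM on a log scale of 8 genes in 6 cell classes, injured (red) left of uninjured (blue), with exact Poisson 95% intervals, and open triangles at the level of 3 UMIs where none was counted. The injured points of Irf1 and Irgm1 lie below the uninjured ones in all 6 classes, 1 of them uncalled for each gene, and those of Ifitm1 lie above in 5 classes, 1 of them uncalled.

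Psmb8, an immunoproteasome subunit and the gamma-type gene with the second most UMIs, had 92.1 CPM in injured and 60.9 CPM in uninjured epithelial-like cells and 222 and 155 CPM in macrophage or monocyte-like cells. Psmb9 and Tap1 (a peptide transporter) passed the rule in no class either. In all, 17 of the 42 genes passed it in no class, 12 in 1 class and 13 in 2 to 5 classes. No share over all genes stands beside these counts. The 17 were Psmb8, Psmb9, Tap1, Gbp5, Ifi35, Bst2, Irf9, Stat2, Ddx58, Ifih1, Dhx58, Parp14, Xaf1, Oas2, Oas3, Rsad2 and Ifi44.

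The remaining calls concerned genes at low level. In epithelial-like cells Trim30a (0.277 CPM injured, 3.98 CPM uninjured), Oas1a (0.365 and 1.86 CPM) and Irgm2 (0.321 and 0.878 CPM) were lower, and Zbp1 (7.17 and 1.02 CPM) and Gbp3 (1.39 and 0.397 CPM) were higher. Stromal-like cells had Zbp1 higher, at 16.1 CPM injured and 1.55 CPM uninjured (163 and 4 UMIs), and Usp18 and Irgm2 lower. Usp18, the enzyme that removes ISG15 from proteins and dampens the type I receptor, had 1.97 CPM injured and 6.58 CPM uninjured there. Within the shared stromal-like cluster led by Mmp3 and Col3a1, Zbp1 (163 injured UMIs and 1 uninjured UMI), Usp18 and Irgm2 met no rule. Rtp4 was lower in mural-like cells, at 22.9 and 63.6 CPM (14 and 8 UMIs).

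Other interferon-responsive genes, taken from pathway lists, were counted by the same rule. Of 29 further type I genes measured in epithelial-like cells, 10 were higher and 3 lower, against 12.9% and 11.4% of all genes measured there. Ly6e, a surface protein that restricts virus entry, had 786 CPM in injured and 168 CPM in uninjured cells, Slfn2 had 46.2 and 7.41 CPM, and Ifi204 (a DNA-binding p200 family protein) had 38.5 and 12.5 CPM. Ifi27l2a was lower, at 5.19 and 23.1 CPM. Of 23 such genes in stromal-like cells 5 were higher and 4 lower, against 9.85% and 9.4% of all genes. Of 8 in mural-like cells none passed, against 9.06% higher and 8.43% lower of all genes. Of 21 in endothelial-like cells 1 was higher and 3 lower, against 6.6% of all genes in either direction. Endothelial-like Slfn5 had 166 CPM injured and 550.005 CPM uninjured, and Ifi203 129 and 308 CPM. In macrophage or monocyte-like cells 1 of 22 was higher (Ifitm2, 1640.2 and 759 CPM) and 3 were lower, against 2.75% and 3.73% of all genes.

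Antigen presentation genes beyond the members were counted in the same way. In epithelial-like cells 6 of 17 were higher in the injured library and none lower, against 12.9% and 11.4% of all genes. The higher ones include B2m (120 and 56.4 CPM), the light chain of MHC class I. In endothelial-like cells none of 15 was higher and 6 were lower, against 6.6% of all genes in either direction. The lower ones include the class I heavy chain H2-K1, at 426 CPM injured and 876 CPM uninjured. In macrophage or monocyte-like cells none of 16 was higher and 4 were lower, against 2.75% and 3.73% of all genes. The class II invariant chain Cd74 had 4269 CPM in injured and 18219 CPM in uninjured cells of that class. In stromal-like cells 5 of 16 were higher and none lower, against 9.85% and 9.4% of all genes. Mural-like cells had 0 higher and 1 lower of 8, against 9.06% and 8.43%. Schwann-like cells had 0 higher and 1 lower of 8, against 10.1% and 5.63%. Of 11 sensing genes, 8 were measured in stromal-like cells, where 3 were higher and none lower, against 9.85% and 9.4% of all genes. Tmem173, which encodes the DNA pathway protein STING, was 3.78-fold higher in injured stromal-like cells (386 and 26 UMIs). Of 9 measured in epithelial-like cells 1 was higher and 1 lower, against 12.9% and 11.4%. The lower one was Trim25, a partner of the RNA sensor RIG-I, at 32.2 CPM against 93.5 CPM. Of 6 measured in endothelial-like cells none was higher and 2 were lower, against 6.6% in either direction. Of 7 in macrophage or monocyte-like cells none passed, against 2.75% and 3.73%.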

How the data were processed

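Single-cell RNA sequencing counts were analysed for 1 NaOH-injured and 1 uninjured wild-type mouse library. As deposited, each matrix gives unnormalized UMI counts of 32285 genes. The authors made them with Cell Ranger 7.0.1, as the file headers record. The genome build was GRCm38, going by the submitters' processing notes, and the labels used here do not name the 10x chemistry. UMIs of PCR copies were collapsed by the authors' counting, and intervals cover counting error only.

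Barcodes needed 300 genes, 500 UMIs and no more than 20% of UMIs from mitochondrial genes, which 9003 of 9399 injured and 7150 of 7490 uninjured barcodes met. Scrublet's own threshold marked 2 and 32 of them, which was taken as a failure, so the highest scores were removed at 0.8% per 1000 barcodes (677 and 428 cells). Clusters of both libraries together came from 2000 variable genes without interferon pathway genes, 30 components, 20 neighbours and Leiden resolution 1 (scanpy 1.11.5, igraph 0.11.9), with no batch correction. For each class, counts were added up within a library. Intervals are exact Poisson, conditional binomial and Clopper-Pearson intervals at 95% (scipy 1.17.1, numpy 2.4.6, pandas 2.3.3, Python 3.11.15), and figures used matplotlib 3.10.9. Calculations were tested on simulated data.

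Full values were given for genes of at least 50 CPM in 1 library that passed the 2-fold rule, at most 8 per class and direction, for the most abundant gene of each group, and for ligands and receptors. A further gene of the rule is not reported here. Other pathway genes were named from 20 CPM, at most 3 per list and class. Genes named outside this rule were chosen after their values were seen. The genes and lists were chosen with earlier results of these data known. Alternatives were a stricter cell filter, no doublet removal, resolution 2, variable genes including the interferon genes, cells weighted alike, thinning, other UMI minimums and centring on all genes. Counting unnamed epithelial-marker clusters as epithelial-like, and leaving out the 5 cells richest in these genes, were added after seeing the data.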

Additional observations from a re-analysis of the deposited data

Results flagged for a closer look

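The genes below were called in opposite directions in different cell classes, and the differences between classes were not tested. Log2 ratios are injured over uninjured. Ifit3, an IFIT family gene, stood at 1.40 in epithelial-like cells, -2.76 in stromal-like cells and -1.93 in vascular endothelial-like cells. Cxcl10, the T cell chemokine, stood at 2.06 in stromal-like cells, -1.53 in mural-like cells and -3.27 in macrophage or monocyte-like cells. In Schwann-like cells it stood at 2.43, with the single uninjured UMI set to 3. Ifi47, an immunity-related GTPase, stood at 1.08 in epithelial-like cells, -2.18 in mural-like cells and -1.72 in vascular endothelial-like cells, where it was 0.021 with cells thinned to 1000 UMIs. Some of these calls were lost under an alternative. With thinned cells Ifit3 stood at 0.72 and Ifi47 at 0.84 in epithelial-like cells, and without the 5 cells richest in these genes Cxcl10 stood at -0.46 in mural-like cells. With cells weighted alike Ifit3 stood at -0.42 in endothelial-like cells.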

How the results depend on the processing

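No paired analysis was possible because each group has 1 library. Of 264 values of medians and counts under the alternatives, 228 did not move (for counts, within 1.5 times) and 36 moved. Of 540 values of single called genes, 498 kept their call, 41 kept the direction without the call, and Ifi47 in vascular endothelial-like cells changed sign to a log2 ratio of 0.021 with cells thinned to 1000 UMIs. The 498 include 53 values at a minimum of 5 UMIs and 40 at 50 UMIs, which could not change. Counting unnamed clusters as epithelial-like could change epithelial-like calls only. With thinned cells 18 values kept their call, 10 kept the direction without it and 1 changed sign. Thinning gave 3 higher genes in epithelial-like cells, 1 higher and 3 lower in stromal-like, 3 lower in mural-like, 0 higher in Schwann-like, 1 higher and 1 lower in endothelial-like, and 2 higher and 1 lower in macrophage or monocyte-like cells. It also put the median log2 ratio of gamma-type genes at -1.14 in mural-like and -1.45 in Schwann-like cells, and that of type I genes at 0.17 in endothelial-like cells. Weighting each cell alike gave 4 higher genes in epithelial-like, 1 higher and 4 lower in endothelial-like and 2 higher in macrophage or monocyte-like cells, with gamma-type medians of -0.99 in mural-like and 0.19 in endothelial-like cells. Without the 5 cells richest in these genes, mural-like cells had 1 higher and 7 lower genes and a gamma-type median of -1.40, Schwann-like cells 1 lower, endothelial-like cells 1 higher, and macrophage or monocyte-like cells 3 higher and 1 lower with a type I median of -1.65. A minimum of 50 UMIs left 5 lower genes in mural-like, 1 in Schwann-like and 1 in macrophage or monocyte-like cells, by its construction from fewer genes, and a minimum of 5 UMIs gave 4 lower in Schwann-like cells. The stricter cell filter gave 1 higher and 1 lower gene in Schwann-like and 2 higher in endothelial-like cells, and no doublet removal 1 higher in endothelial-like cells. Centring on all genes gave 4 higher genes in macrophage or monocyte-like cells and a type I median of -0.10. For these alternatives neither the number of genes measured nor the share of all genes called is given beside the counts. A changed count can therefore reflect how many genes reached the minimum of UMIs. Beyond that minimum, the cause was not tested. Depth is limited in the uninjured macrophage or monocyte-like (16 cells, 57962 UMIs), Schwann-like (55 cells, 97537 UMIs), mural-like (58 cells, 125792 UMIs) and endothelial-like classes (43 cells, 165453 UMIs).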
